A study of Homo sapiens with 36 samples.

Results

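TEAD1, TEAD2, TEAD3 and TEAD4 encode the 4 TEAD transcription factors, and VGLL1, VGLL3 and VGLL4 encode vestigial-like cofactors that bind them. These 7 genes, of 60725 Ensembl genes measured, were listed by name for their place in the TEAD complex. All 7 had an entry in the table of every library, and all but VGLL1, which was at 0 in most libraries, were tested. On GRCh38 with GENCODE version 44, TEAD1 lies on chromosome 11 (12674421 to 12944737, plus strand), TEAD2 on chromosome 19 (49340595 to 49362457, minus), TEAD3 on chromosome 6 (35473597 to 35497079, minus) and TEAD4 on chromosome 12 (2959330 to 3040676, plus). VGLL1 lies on chromosome X (136532215 to 136556807, plus), and VGLL3 (86876388 to 86991149, minus) and VGLL4 (11556069 to 11771350, minus) both lie on chromosome 3. The levels and the responses of these genes are described in 36 RNA sequencing libraries of breast cell lines, in 18 groups of 2.

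TEAD proteins bind DNA but have little activity on their own. The co-activators YAP and TAZ (gene symbols YAP1 and WWTR1), which the kinases of the Hippo pathway keep out of the nucleus, join TEAD proteins to switch on genes of growth and cell shape. Vestigial-like proteins hold TEAD through short motifs of their own, and VGLL4 is best known for competing with YAP for TEAD.

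MCF-10A ER-Src is an immortalized, non-transformed mammary epithelial line that carries the v-Src oncoprotein fused to the ligand-binding part of the estrogen receptor. It was studied untransformed, in ethanol (ETH), and after tamoxifen (TAM) had turned the oncoprotein on. The treatment text names AZD0530, a Src family inhibitor, along with tamoxifen, and the treatment time of the RNA libraries is not given in the sources used here. Pools of small interfering RNA (siRNA) were aimed at YAP (YAPi), TAZ (TAZi), STAT3 (STAT3i) or JUNB (JUNBi), or at no gene of the cell (Ctrli), each under ETH and TAM, which makes 10 ER-Src groups. MDA-MB-231, an established triple-negative breast cancer line with no inducible transgene, was studied without TAM in 2 sets, set 1 with Ctrli, YAPi, TAZi, both together (YAPi_TAZi) and TEADi, which is aimed at TEAD, and set 2 with Ctrli, STAT3i and JUNBi. Knockdown by siRNA is partial and transient, and which TEAD genes the TEADi pool targets is not given in the sources used here.

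Expected counts summed to between 6419720 and 19161700 in the ER-Src libraries, 13456784 and 13534560 in the set 1 controls, 1411304 to 2784605 in the set 1 knockdowns and 7290499 to 18076158 in set 2. The set 1 controls were of another library kind than the set 1 knockdowns: 7 RNAs that carry no poly(A) tail took at most 0.00407% of their counts but at least 8.71% in the knockdowns. The 4 set 1 knockdowns were therefore compared among themselves. There replicate 1 and replicate 2 still differed in length minus effective length (48 against about 74.6 bases). In ER-Src the same measure was 49.5 bases in the Ctrli, YAPi and TAZi libraries and 49 in the 8 STAT3i and JUNBi libraries, so that library kind and knockdown cannot be told apart there. Among the ER-Src groups, replicates agreed least in JUNBi_ETH, with an SD of 0.639 on the log2 scale between the 2 libraries over genes. STAT3i_ETH followed with 0.453, against 0.21 to 0.276 in the other ER-Src groups. The SD was also large in the set 1 knockdowns (0.438 to 0.534) and in the set 2 controls (0.472). It was 0.129 in the set 1 controls, and 0.266 and 0.275 in the set 2 knockdowns. The basal keratins KRT5, KRT14 and KRT17 marked the ER-Src libraries (KRT5 at least 1010 in TPM, the deposited transcript abundance per length). They were at most 11.5 TPM in MDA-MB-231. TP63 and CDH1 of the same basal list followed the keratins, but ITGB4 did not (median 32.8 TPM in ER-Src, 45.2 in MDA-MB-231). Of the fixed mesenchymal markers, VIM had a median of 900 TPM in MDA-MB-231, but SPARC reached only 1.12 TPM there. FN1 also had a lower median in MDA-MB-231 (23.6 TPM) than in ER-Src (37.7). The labels do not say that replicates were separate cultures, so p-values measure only the spread between these libraries.

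The targeted genes were lower where their siRNA was used. YAP1 stood at 4.31 to 5.74 TPM in the 4 ER-Src YAPi libraries against 26.8 to 38.5 in the 4 Ctrli libraries, and WWTR1 at 1.28 to 2.77 TPM in the TAZi libraries against 6.15 to 6.61. STAT3 was at 6.5 to 8.67 TPM under STAT3i against 18.7 to 44.2. Under TAM, JUNB was at 16.4 and 18.9 TPM with JUNBi, and at 14.4 and 14.9 TPM with STAT3i, against 54.4 and 71.1 in Ctrli. Under ETH the JUNBi libraries were uneven, with JUNB at 3.9 and 8.55 TPM against 11.9 and 13 in Ctrli. With STAT3i under ETH it was at 7.97 and 16.5 TPM. In set 1 YAP1 was lower in YAPi than in TAZi, with a log2 change of -3.04, and WWTR1 was higher, with 3.72. In YAPi_TAZi, YAP1 was lower than in TAZi (-3.04) and WWTR1 lower than in YAPi (-2.51). WWTR1 was at 2.29 and 4.34 TPM there against 0.57 and 2 in TAZi, a log2 difference of 1.2 that was not called (SE 0.497, adjusted p = 0.111). In set 2 STAT3 was at 2.75 and 3.07 TPM with STAT3i against 15.4 and 20.8 in Ctrli, and JUNB at 6.7 and 7.99 with JUNBi against 18.7 and 31.6.

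In ER-Src cells TEAD1, TEAD4 and VGLL4 were the most abundant of the 7 transcripts, and VGLL1 was not detected beyond single reads. In TPM, which is per length, the 20 libraries ran from 5.44 to 14.9 for TEAD1 (median 8.51), from 5.5 to 10.9 for TEAD4 (median 8.67) and from 3.27 to 13.3 for VGLL4 (median 9.37). VGLL3 ran from 3.72 to 7.55 TPM (median 5.06), TEAD2 from 1.39 to 6.81 (median 3.78) and TEAD3 from 0.64 to 1.99 (median 1.23). TEAD4 and VGLL3 varied least, with the highest library at 1.98 and 2.03 times the lowest, and TEAD2 varied most, with 4.9 times. VGLL1, a cofactor known from placental and some carcinoma cells, was at 0 in 34 of the 36 libraries. The exceptions were the YAPi_TAM libraries, with 1 count in each, and a count of 0 allowed between 0.157 and 2.13 CPM (counts scaled to library size) depending on the library. No fold change is given for VGLL1.

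**Figure D1:**
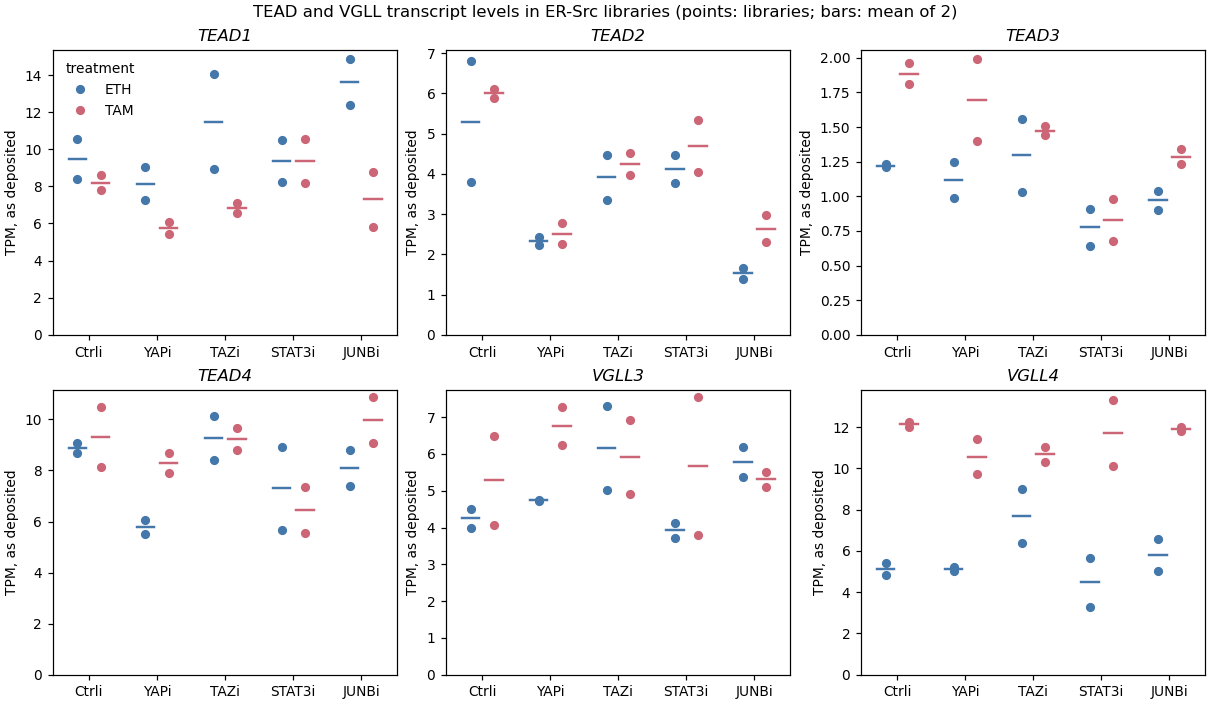
TPM as deposited (y axis) of 6 genes in the 20 ER-Src libraries, by siRNA (x axis) and treatment (blue ETH, red TAM); points are libraries and bars the mean of 2. VGLL4 is higher in TAM than in ETH under each siRNA, and TEAD2 is lowest under YAPi and JUNBi.

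The order of the levels changed with treatment. In Ctrli cells under ETH, TEAD1 (8.42 and 10.6 TPM) and TEAD4 (8.67 and 9.09) led with overlapping values. They were followed by TEAD2 (3.79 and 6.81), VGLL4 (4.83 and 5.44), VGLL3 (4 and 4.5) and TEAD3 (1.21 and 1.23). TEAD2 and VGLL4 also overlapped. In TAM-treated Ctrli cells VGLL4 came first with 12 and 12.3 TPM, above TEAD4 (8.14 and 10.5) and TEAD1 (7.8 and 8.6), which overlapped. TEAD2 (5.88 and 6.12) and VGLL3 (4.07 and 6.5) overlapped in turn, and TEAD3 was last of the detected genes with 1.81 and 1.96. By mean TPM, VGLL4 was first in all 5 TAM groups and TEAD1 in all 5 ETH groups, though the first gene overlapped the next in STAT3i_TAM, Ctrli_ETH, TAZi_ETH and STAT3i_ETH.

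The first question was what transformation by Src did to the TEAD and VGLL genes. VGLL4 rose 3.24-fold and VGLL3 2.02-fold in normalized counts, while none of the 4 TEAD genes was called. This made 2 of 6 genes called at an adjusted p under 0.01, beside 6.26% of all genes tested. Among all genes called, 711 were higher and 237 lower with TAM. The median log2 change was 0.73 over the 6 genes and -0.01 over all genes.

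For VGLL4, the competitor of YAP, normalized counts were 160 and 191 in ETH and 546 and 590 in TAM. The TAM libraries were both well above the ETH libraries, though in such bulk RNA a change in every cell and a change in some cells cannot be told apart. The log2 change was 1.69 (SE 0.202, adjusted p = 3.8e-15), and the call held under all 6 alternative fits and without any 1 of the 4 libraries. In TPM the mean was 12.1 against 5.13, a ratio of 2.36. The deposited mean transcript length of VGLL4 was greater in TAM, at 1993 and 1997 bases against 1581 and 1754, and with length offsets the log2 change was 1.51.

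The same direction was seen under every siRNA. VGLL4 measured 9.71 and 11.4 TPM in YAPi_TAM against 5.02 and 5.2 in YAPi_ETH, and 10.3 and 11.1 in TAZi_TAM against 6.37 and 9.02 in TAZi_ETH. It measured 10.1 and 13.3 TPM in STAT3i_TAM against 3.27 and 5.68 in STAT3i_ETH, and 11.8 and 12 in JUNBi_TAM against 5.04 and 6.58 in JUNBi_ETH. The groups did not overlap in any of these pairs. The ratios of the means were 2.07, 1.39, 2.62 and 2.05. Of 11948 genes with a mean of at least 1 TPM, 2.08% were higher in TAM without overlap under all 5 siRNAs.

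VGLL3, a cofactor linked to sex-biased immune gene programs in skin, had normalized counts of 381 and 331 in ETH and 753 and 683 in TAM. The log2 change was 1.01 (SE 0.172, adjusted p = 1.81e-07). The TPM values overlapped (4 and 4.5 against 4.07 and 6.5), and the mean transcript length was 3253 and 4942 bases in ETH but 5009 and 6829 in TAM. With offsets for length the log2 change was 0.58 and was not called (adjusted p = 0.095), nor was it without replicate 2 of Ctrli_ETH (0.91, adjusted p = 0.011) or replicate 1 of Ctrli_TAM (0.93, adjusted p = 0.017).

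Among the TEAD genes, TEAD3 had the largest estimate, with normalized counts of 41.4 and 51.3 in ETH and 115 and 97.6 in TAM. The groups did not overlap, in counts or in TPM, but the log2 difference of 1.2 (SE 0.403) had an adjusted p of 0.0355. It passed the threshold in edgeR (adjusted p = 4.08e-06) and in 1 fit over all ER-Src groups (adjusted p = 0.00128). TEAD2 (0.45, 95% interval -0.0377 to 0.938) and TEAD4 (0.39, -0.0418 to 0.826) were not called. TEAD1 measured 917 and 823 in ETH and 978 and 719 in TAM, with overlapping libraries and a log2 difference of -0.03 (-0.358 to 0.295).

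The other genes of the pathway were read from lists. Beside them stand the 6.26% of all genes called in this run, 711 higher and 237 lower. Of 8 Hippo kinases and scaffolds, 2 rose with TAM, among them the kinase MAP4K4 (0.52, adjusted p = 1.37e-05), and none fell. Of 6 upstream inhibitors of YAP with an adjusted p, 2 rose, led by the scaffold WWC1 with 2.62 (SE 0.118, adjusted p = 1e-106). Of 22 YAP and TAZ target genes 3 rose and 1 fell, and F3, the gene of tissue factor, had the lowest adjusted p among them (0.81, adjusted p = 1.34e-06). The co-activators themselves were not called, with log2 differences of 0.08 (SE 0.116) for YAP1 and 0.24 (SE 0.201) for WWTR1.

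The second question was which TEAD and VGLL genes changed with each knockdown in transformed cells. TEAD2 fell 1.98-fold with YAPi and 2.23-fold with JUNBi, and TEAD3 fell 2.66-fold with STAT3i. No VGLL gene was called in any of the 4 comparisons under TAM. All 4 share the Ctrli_TAM libraries. The STAT3i and JUNBi libraries differ from these in length minus effective length, so library kind and knockdown cannot be told apart for them. Of 24 tests 3 were called: 1 of 6 with YAPi (9.84% of all genes), 0 of 6 with TAZi (3.31%), 1 of 6 with STAT3i (7.53%) and 1 of 6 with JUNBi (6.57%).

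TEAD2, the TEAD gene known from early embryos and neural tissue, had normalized counts of 141 and 124 in YAPi_TAM against 258 and 265 in Ctrli_TAM. Both knockdown libraries lay below both controls. The log2 change was -0.98 (SE 0.259, adjusted p = 0.00204). With JUNBi the counts were 111 and 124 against 258 and 266, again without overlap, and the log2 change was -1.16 (SE 0.270, adjusted p = 0.000512; edgeR adjusted p = 0.029). Either call was lost whichever of its 4 libraries was left out, with adjusted p-values of 0.065 to 0.29 for YAPi and 0.032 to 0.16 for JUNBi.

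TAZi and STAT3i gave TEAD2 estimates of -0.46 (adjusted p = 0.359) and -0.69 (adjusted p = 0.0667), neither of them called as tested, though edgeR and 1 fit over all ER-Src groups called STAT3i (adjusted p = 0.00886 and 0.0045). The libraries of TAZi (200 and 166) and of STAT3i (190 and 142) lay below their controls, which were 248 and 255, and 265 and 273, on the scale of each fit.

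TEAD3 had 41.5 and 49.9 normalized counts in STAT3i_TAM against 131 and 112 in Ctrli_TAM. The groups were far apart, at a log2 change of -1.41 (SE 0.392, adjusted p = 0.00477). The TPM values were 0.68 and 0.98 against 1.81 and 1.96. This call too was lost without any 1 of the 4 libraries (adjusted p 0.08 to 0.37). TEAD4, the TEAD gene of the early placental lineage, had 187 and 246 counts with STAT3i against 355 and 331, a log2 difference of -0.67 that was not called (adjusted p = 0.0451; edgeR 0.00601).

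**Figure D2:**
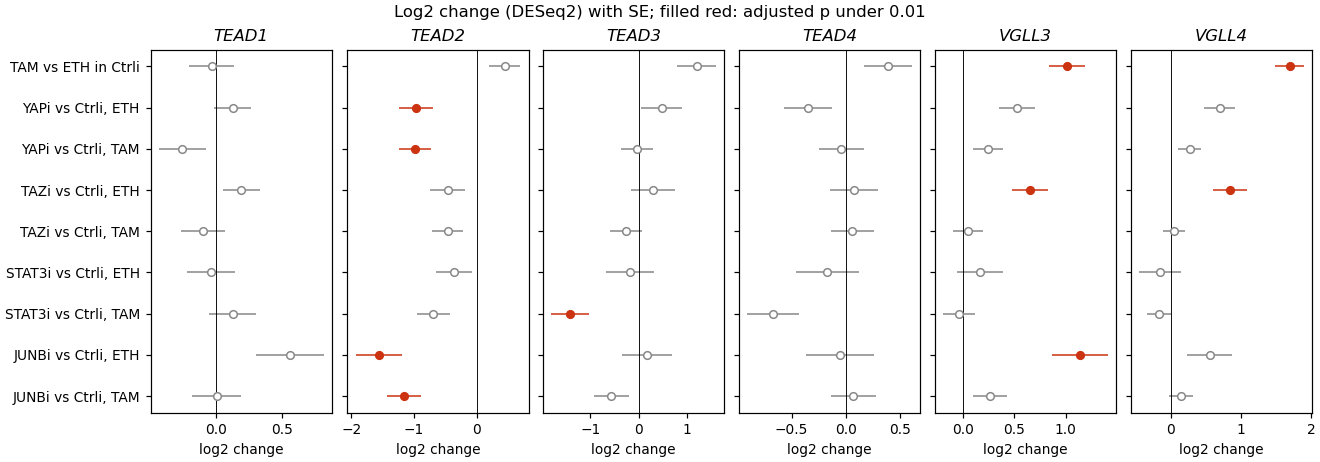
Log2 changes from DESeq2 (x axis, each panel with its own range) with SE bars for 6 genes in 9 ER-Src comparisons (y axis); filled red points have an adjusted p under 0.01. TEAD2 is below 0 in all 8 knockdown comparisons and filled in 4 of them, and VGLL4 with TAM is the largest change to the right.

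TEAD1, the most widely expressed TEAD gene, stayed uncalled in all 4 knockdowns under TAM, with log2 differences from -0.25 to 0.13. VGLL4 ranged from -0.17 with STAT3i to 0.27 with YAPi, and VGLL3 from -0.04 to 0.27. Of the 22 YAP and TAZ targets, 1 rose and 4 fell with YAPi, and none rose and 4 fell with TAZi. With STAT3i 5 rose, and with JUNBi 4 rose and 1 fell. The called shares of all genes in these runs were 9.84%, 3.31%, 7.53% and 6.57%. With YAPi the target of lowest adjusted p, F3, rose by 1.38 on the log2 scale (SE 0.133, adjusted p = 1.57e-22). The target ANKRD1, a gene of the muscle and stress response, was higher with JUNBi by 3.40 on the log2 scale (SE 0.317, adjusted p = 5.25e-24).

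In untransformed cells TEAD2 fell again with YAPi and JUNBi, and VGLL3 and VGLL4 rose in some knockdowns. Of 24 tests 5 were called: 1 of 6 with YAPi (11.1% of all genes), 2 of 6 with TAZi (4.71%), 0 of 6 with STAT3i (0.159%) and 2 of 6 with JUNBi (2.65%). These comparisons share the Ctrli_ETH libraries, and library kind again cannot be told apart from STAT3i and JUNBi. Of the 22 YAP and TAZ targets, 3 rose and 2 fell with YAPi, and 2 rose and 3 fell with TAZi. With JUNBi 4 rose and none fell, and with STAT3i none was called. F3 again rose with YAPi, by 1.83 on the log2 scale (SE 0.17, adjusted p = 1.64e-24).

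TEAD2 had normalized counts of 117 and 130 in YAPi_ETH against 251 and 230, a log2 change of -0.96 (SE 0.274, adjusted p = 0.00455). In JUNBi_ETH the counts were 76.8 and 77.4 against 236 and 218, a log2 change of -1.56 (SE 0.372, adjusted p = 0.00164), which was the largest TEAD2 change in the ER-Src cells. Neither pair of groups overlapped. The YAPi call was lost without any 1 library (adjusted p 0.064 to 0.31) and with length offsets (0.012). The JUNBi call held under all 6 alternative fits but was lost without replicate 1 of Ctrli_ETH (adjusted p = 1) or replicate 2 (0.66), and JUNBi_ETH was the group whose replicates agreed least.

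VGLL3 had 628 and 614 normalized counts in TAZi_ETH against 422 and 367, a log2 change of 0.65 (SE 0.176, adjusted p = 0.00507). In JUNBi_ETH it had 1197 and 872 against 502 and 436, a log2 change of 1.14 (SE 0.273, adjusted p = 0.00165). Both knockdowns lay above their controls without overlap. With length offsets both calls were lost, at adjusted p-values of 0.14 and 0.69, and the JUNBi change became 0.39 on the log2 scale. Without 1 library the TAZi call was always lost (adjusted p 0.16 to 0.42), and the JUNBi call was lost without replicate 1 (0.7) or 2 (0.95) of Ctrli_ETH.

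VGLL4 had 303 and 395 normalized counts in TAZi_ETH against 177 and 212, a log2 change of 0.84 (SE 0.239, adjusted p = 0.00934). The groups did not overlap, but the call was lost with TMM size factors (adjusted p = 0.011), with length offsets (0.19) and without any 1 library (0.047 to 0.72). With YAPi the VGLL4 counts of 406 and 387 against 224 and 266 gave 0.70 (adjusted p = 0.0123), which was not called here but was by edgeR (2.07e-05), with the count filter (0.00667) and in 1 fit over all groups (0.00202). VGLL3 with YAPi (734 and 694 against 532 and 461) gave 0.52 (adjusted p = 0.0182), called by edgeR (0.00038) and in 1 fit (0.00847). TEAD1 was at 1955 and 1415 in JUNBi_ETH against 1210 and 1085, a log2 difference of 0.55 (adjusted p = 0.283) that became 0.78 (adjusted p = 0.000215) without replicate 2 of JUNBi_ETH.

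The knockdowns of the paralogs YAP and TAZ were also compared directly. None of 12 tests was called by DESeq2, beside 6.26% of all genes under TAM and 4.03% under ETH, and 1 of the 12 had an unadjusted p under 0.05. That was TEAD2 under TAM, with 184 and 162 counts in YAPi against 270 and 225 in TAZi. The difference was -0.52 (95% interval -1.03 to -0.0126), and edgeR called it (adjusted p = 0.00443). Under ETH the TEAD2 difference was -0.50 (-1.12 to 0.126). YAP1 and WWTR1 differed between the same libraries by -2.32 and 2.05 on the log2 scale under TAM.

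Whether a knockdown acted differently in transformed and untransformed cells was tested as an interaction. None of 24 tests was called by DESeq2, and 4 had an unadjusted p under 0.05. The background was 0.498% of genes for YAPi, 0.544% for TAZi, 1.8% for STAT3i and 0.26% for JUNBi, so few genes of any kind were called. The VGLL4 response to TAZi was lower under TAM than under ETH by 0.81 (SE 0.263, adjusted p = 0.105), which edgeR called (adjusted p = 0.00152). VGLL3 gave -0.62 for TAZi (adjusted p = 0.117) and -0.90 for JUNBi (adjusted p = 0.296), the latter called in 1 fit over all groups (0.00761) and without replicate 2 of JUNBi_ETH (0.00279). TEAD3 gave -1.25 for STAT3i (unadjusted p = 0.0288, 95% interval -2.38 to -0.13). These intervals are wide, and an interaction that was not called is not shown to be absent.

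Promoter windows were read for 5 of the 7 genes, TEAD2, TEAD3, VGLL1, VGLL3 and VGLL4, because AP-1 (the family of JUNB), STAT3 and TEAD bind known short motifs. The 10 windows cover 250 bases before to 50 after each RefSeq start (GRCh38.p14). Searched on both strands were GGAATG for TEAD, TGANTCA for AP-1 and TTCNNNGAA for STAT, which occur in 14%, 7.72% and 7.66% of 34943 such windows. None of the 3 occurred in the windows of TEAD2, TEAD3, VGLL3 or VGLL4, and a single TEAD match lay in that of VGLL1, starting 157 bases before the start on the minus strand. A missing match says only that these letters are not in this window. Shown 5′ to 3′ are 1 of 2 windows of TEAD2 (chr19:49362367-49362666, minus strand), whose transcript fell in 4 of 8 knockdown comparisons, 1 of 5 for VGLL4 (chr3:11720490-11720789, minus strand), whose transcript rose with TAM, and that of VGLL1 (chrX:136531965-136532264, plus strand), with its match in capitals.
TEAD2: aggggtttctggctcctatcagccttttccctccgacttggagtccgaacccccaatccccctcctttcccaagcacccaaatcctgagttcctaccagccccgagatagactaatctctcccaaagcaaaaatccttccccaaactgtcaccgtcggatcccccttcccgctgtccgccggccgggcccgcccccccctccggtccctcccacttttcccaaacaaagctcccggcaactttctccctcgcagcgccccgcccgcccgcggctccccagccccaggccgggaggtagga
VGLL4: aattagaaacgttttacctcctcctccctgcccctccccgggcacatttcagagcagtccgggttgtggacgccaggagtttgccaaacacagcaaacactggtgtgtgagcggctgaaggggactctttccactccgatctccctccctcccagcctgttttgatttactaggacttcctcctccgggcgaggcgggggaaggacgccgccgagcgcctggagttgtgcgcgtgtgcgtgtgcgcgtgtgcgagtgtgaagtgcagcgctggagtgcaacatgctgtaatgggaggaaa
VGLL1: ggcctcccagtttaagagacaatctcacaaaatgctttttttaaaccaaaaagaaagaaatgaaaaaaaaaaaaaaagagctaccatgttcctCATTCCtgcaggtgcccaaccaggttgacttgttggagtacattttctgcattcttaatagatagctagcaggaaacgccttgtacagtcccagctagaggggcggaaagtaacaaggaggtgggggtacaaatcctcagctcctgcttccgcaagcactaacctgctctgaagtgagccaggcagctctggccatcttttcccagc

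In MDA-MB-231 set 1, TEAD1 and TEAD2 were lower with TEADi than with each of the other knockdowns. TEAD4 was at 0 and 1 counts with TEADi but had no adjusted p, and TEAD3 was not called. VGLL4 was highest in YAPi_TAZi. Of 29 tests with an adjusted p 10 were called: 2 of 5 for TEADi against YAPi (7.53% of all genes), 2 of 5 against TAZi (9.43%) and 3 of 5 against YAPi_TAZi (5.25%). For YAPi_TAZi against YAPi it was 1 of 5 (7.87%), against TAZi 2 of 5 (6.8%), and for YAPi against TAZi 0 of 4 (2.99%). These contrasts share groups. The calls of TEADi against YAPi and TAZi were TEAD1 and TEAD2, and against YAPi_TAZi they were TEAD1, TEAD2 and VGLL4. TEAD genes are what TEADi is aimed at, so their calls check the knockdown. They are not responses to set beside the shares of all genes.

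TEAD1 had normalized counts of 190 and 188 in TEADi, 439 and 448 in YAPi, 496 and 546 in TAZi, and 344 and 384 in YAPi_TAZi. TEADi was below all the other knockdowns. The log2 changes were -1.23 against YAPi (SE 0.159, adjusted p = 1.53e-12), -1.47 against TAZi (SE 0.158, adjusted p = 5.43e-18) and -0.95 against YAPi_TAZi (SE 0.162, adjusted p = 4.31e-07). All 3 calls held without any 1 of the 8 libraries, but with length offsets the change against YAPi_TAZi was -0.54 (adjusted p = 0.18). The offsets also shrank the changes against YAPi, to -0.87 (adjusted p = 0.0026), and against TAZi, to -0.92 (adjusted p = 0.00077), which stayed called. The deposited TPM values of TEADi (8.3 in replicate 1 and 18.5 in replicate 2) overlapped the other groups across replicates. Within a replicate TEADi was lower each time, by 1.21 and 1.25 on the log2 scale of normalized counts against YAPi.

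TEAD2 was at 2 counts in each TEADi library, or 2.55 and 1.72 after normalization, against 34.2 and 20.9 in YAPi, 23.8 and 13.8 in TAZi and 21.8 and 19.9 in YAPi_TAZi. Both TEADi libraries lay below those of the other knockdowns. The summed counts gave ratios of 0.0753 to YAPi (95% exact interval 0.0199 to 0.203), 0.117 to TAZi (0.0304 to 0.322) and 0.0993 to YAPi_TAZi (0.0257 to 0.276), with counting error only. Adjusted p-values were 0.000849, 0.00675 and 0.00638, and 0.00035, 0.0036 and 0.0023 in a DESeq2 fit paired by replicate number. Under TMM size factors, the count filter and most omissions of a library these tests had no adjusted p, and against TAZi the adjusted p was 0.03 in a separate fit and 0.013 to 0.016 in the 4 omissions that gave one. Against YAPi_TAZi the 1 omission that gave one had 0.018.

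TEAD4 was at 0 and 1 counts in TEADi, against 15 and 20 in YAPi, 17 and 21 in TAZi and 7 and 11 in YAPi_TAZi. The ratios were 0.0323 (0.000795 to 0.192), 0.0315 (0.000777 to 0.186) and 0.051 (0.00122 to 0.323). DESeq2 gave TEAD4 no adjusted p, with unadjusted p-values of 0.00146, 0.00124 and 0.00565, and edgeR called it in all 3 contrasts (adjusted p = 1.61e-06, 8.85e-07 and 0.000495).

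TEAD3 had 43.4 and 25.8 normalized counts in TEADi, 37.1 and 33.9 in YAPi, 48.8 and 36.6 in TAZi and 50.3 and 38.9 in YAPi_TAZi. TEADi overlapped each of them in counts across replicates. In deposited TPM, TEADi (3.3 and 3.56) overlapped YAPi (2.95 and 5.83) but lay below TAZi (4.67 and 6.48) and YAPi_TAZi (4.65 and 6.1). Within replicates 1 and 2 the log2 ratios of normalized counts were -0.17 and -0.51 to TAZi, -0.21 and -0.59 to YAPi_TAZi, and 0.23 and -0.40 to YAPi. In the fit without pairing, the log2 differences to YAPi, TAZi and YAPi_TAZi were -0.06 (95% interval -0.871 to 0.742), -0.32 (-1.11 to 0.479) and -0.38 (-1.19 to 0.423). A fall of the size seen for TEAD2 lay outside each interval. The TEAD1 falls against YAPi and TAZi also lay outside the intervals of those contrasts. The smaller TEAD1 fall against YAPi_TAZi (-0.95) lay inside its interval, so a TEAD3 fall of that size is not excluded there. Summed over the 4 genes, TEAD transcripts reached 59.1 and 60.5 in TEADi against 107 to 142 in the 3 other knockdowns, in TPM rescaled over protein-coding genes.

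**Figure D3:**
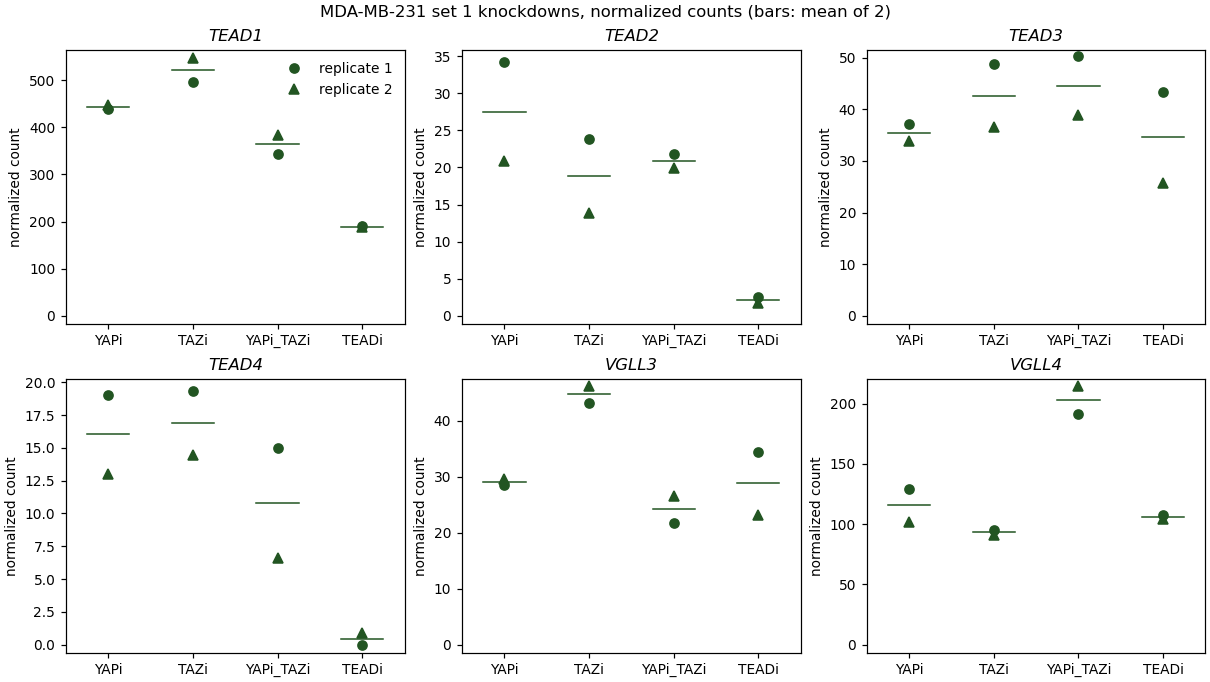
Normalized counts (y axis, from 0, each panel with its own range) of 6 genes in the 4 set 1 knockdowns (x axis); circles are replicate 1, triangles replicate 2 and bars the mean. TEADi is lowest for TEAD1, TEAD2 and TEAD4 but not apart for TEAD3, and VGLL4 is highest in YAPi_TAZi.

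VGLL4 had 192 and 214 normalized counts in YAPi_TAZi, 129 and 102 in YAPi, 95.4 and 91.1 in TAZi and 107 and 104 in TEADi. YAPi_TAZi was above the others without overlap, also in TPM. It was higher than TAZi by 1.13 (SE 0.229, adjusted p = 2.89e-05), higher than YAPi by 0.82 (SE 0.225, adjusted p = 0.00406), and TEADi was lower than YAPi_TAZi by 0.95 (SE 0.229, adjusted p = 0.00104). In a DESeq2 fit paired by replicate number the adjusted p-values were 4.4e-07, 0.00036 and 5.3e-05, in this order. The first held under all 6 alternative fits but not without TAZi replicate 1 (adjusted p = 0.038), TAZi replicate 2 (0.094) or YAPi_TAZi replicate 2 (0.018). The second was lost without any 1 of the 8 libraries (0.012 to 0.19) and under 4 of the 6 fits (0.014 to 0.07), and the third without any library of TAZi, TEADi or YAPi_TAZi (0.019 to 0.15) and with TMM size factors (0.017).

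TEAD1 was lower in YAPi_TAZi than in TAZi by 0.52 (SE 0.15, adjusted p = 0.00836), a call lost without any 1 library (0.015 to 0.46), with TMM size factors (0.032), the count filter (0.028) and length offsets (0.4). In the DESeq2 fit paired by replicate number this TEAD1 difference had an adjusted p of 9.2e-05. VGLL3 was low throughout, with 21.8 to 46.2 normalized counts. TAZi held the highest VGLL3 libraries, and its largest difference, -0.88 for YAPi_TAZi against TAZi, had an adjusted p of 0.232.

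Target genes were read beside these. Of 20 YAP and TAZ targets with an adjusted p, 12 fell and none rose in YAPi_TAZi against YAPi, and 8 fell and none rose against TAZi. In TEADi 7 fell and none rose against YAPi, 7 fell and 3 rose against TAZi, and 8 rose and 1 fell against YAPi_TAZi. Of all genes, 523 fell and 271 rose in YAPi_TAZi against YAPi (7.87% called), and 483 fell and 238 rose against TAZi (6.8%). With TEADi 452 fell and 308 rose against YAPi (7.53%), 540 fell and 460 rose against TAZi (9.43%), and 230 fell and 300 rose against YAPi_TAZi (5.25%). ANKRD1 was lower in TEADi than in YAPi by 2.95 (adjusted p = 1.14e-32), and CCN1, which encodes a matricellular protein, was lower in YAPi_TAZi than in YAPi by 3.35 (adjusted p = 6.94e-64).

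In set 2 no member was called with either siRNA. DESeq2 gave an adjusted p to 1 of 6 genes with JUNBi (6.1% of all genes called) and to 5 of 6 with STAT3i (0.135%), and edgeR called none. TEAD2 had 108 and 111 normalized counts with JUNBi against 207 and 196, without overlap, a difference of -0.88 (SE 0.359, unadjusted p = 0.0141, the only one of the 12 values under 0.05). TEAD1 had 166 and 198 against 152 and 54.9, without overlap but with controls that lay far apart. The TEAD1 estimate was 0.82 and was not called, and without control replicate 3 it was 1.74 (adjusted p = 0.00673).

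Levels in MDA-MB-231 differed between sets and scales. TEAD1 was at 39.4 and 47.3 TPM in the set 1 controls but at 0.76 and 1.87 TPM in the set 2 controls, both of the library kind with few non-poly(A) RNAs. YAP1 was likewise at 60.4 and 64.2 against 9.88 and 13.6 TPM, while TEAD4 was at 22.3 and 22.8 against 17.4 and 20.4. No test was made between sets, whose batches cannot be told apart from other differences. TEAD3 was above its ER-Src range in all 16 MDA-MB-231 libraries (lowest 2.95 TPM), and VGLL3 was below its own ER-Src range in all 16 (highest 2.43 TPM).

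Against the set 1 controls, the mean of the YAPi, TAZi and YAPi_TAZi libraries was lower for TEAD1 by 0.87 on the log2 scale of deposited TPM, but 0.80 higher once TPM was rescaled over protein-coding genes. VGLL4 turned likewise, from -0.15 to 1.57, and TEAD2 went from -1.79 to -0.04. TEAD3 (-2.59 and -0.88) and TEAD4 (-3.01 and -1.21) were lower and VGLL3 (2.37 and 4.07) higher on both scales. In TEADi the rescaled mean of TEAD1 was 45.2 against 45.9 in the controls, with overlapping libraries, while TEAD2 was at 1.34 against 18.1 and TEAD4 at 0.321 against 23.8. Library kind and knockdown cannot be told apart in these values.

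**Figure D4:**
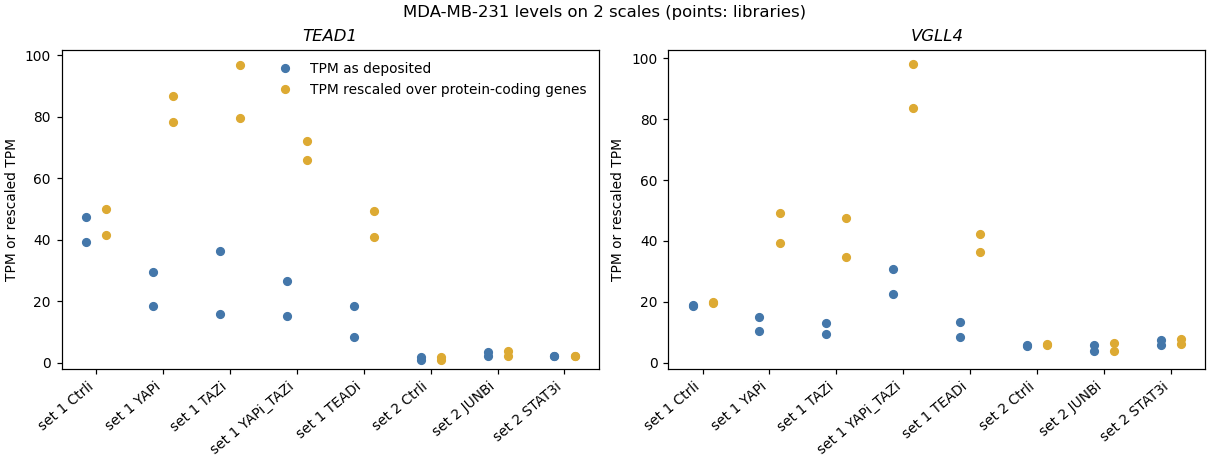
TPM as deposited (blue) and rescaled over protein-coding genes (yellow) on the y axis, for TEAD1 and VGLL4 in the 16 MDA-MB-231 libraries by group (x axis). The 2 scales nearly coincide in the controls of set 1 and in set 2 and part in the set 1 knockdowns, and TEAD1 is far lower in set 2 than in set 1.

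Across the 20 ER-Src libraries the genes did not follow one course. The closest pair was TEAD3 and TEAD4 (Pearson r = 0.621 on log2 TPM with a pseudocount of 1), followed by TEAD3 and VGLL4 (0.587), and the lowest was TEAD1 and VGLL4 (-0.368). Among 11767 genes searched, VGLL4 was most like BIK (0.931), a gene of apoptosis, DUSP23 (0.898) and MMP14 (0.87), which encodes a membrane-bound matrix protease. TEAD2 was most like PROCR (0.892), the receptor of protein C, and TEAD3 like LTB4R (0.872), TEAD4 like FLOT2 (0.896), TEAD1 like DIP2A (0.903) and VGLL3 like FLCN (0.842). These are descriptions over libraries that share groups, treatments and depth.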

How the data were processed

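The authors name 1 kit, TruSeq Ribo Profile, for the libraries, whose composition nevertheless fell into more than 1 kind. The authors aligned reads to GRCh38 (hg38) with STAR on the GENCODE version 30 transcriptome and quantified genes with RSEM. The authors deposited, per library, expected counts (estimated reads per gene, not normalized), TPM (scaled for effective length and library total), and length and effective length. Symbols and coordinates came from GENCODE version 44. Identifiers that were not Ensembl genes were left out.

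Groups and replicate numbers came from sample titles. Expected counts were rounded and fitted over all genes with DESeq2 1.42.0 (R 4.3.3, default size factors, Wald test, independent filtering), each knockdown against its control in a fit of its own as in the study's methods. TAM against ETH and YAPi against TAZi were fitted likewise on 2 groups, the interactions on 4 groups each, and the set 1 knockdowns in 1 fit of 4 groups. An adjusted p under 0.01 was called. Normalized counts are on the scale of each fit. Log2 values are unshrunken, with SE and n = 2 per group. Depth ran from 1411304 to 19161700 counts per library, and intervals on counts cover counting error only. TPM was also rescaled to the same total over protein-coding genes alone.

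Alternatives were edgeR 4.0.16 (quasi-likelihood), TMM size factors, a mean count of at least 10, effective-length offsets, a replicate block, 1 fit over all groups (separate fits in set 1), and leaving out each library, where a lone library is assumed to vary like the rest. In set 1, replicates with the same number deviated together in all 6 pairs of groups (r from 0.479 to 0.533), so the numbers pair these samples. They also go with the difference in length minus effective length. The fits were tested on simulated data, where the interaction recovered far fewer changed genes than the comparisons of groups, and the recovery demanded of it was dropped after this was seen. The 7 genes, the pathway lists and the rule for named genes (the 7 genes; for a list its counts, the co-activators and the called gene of lowest adjusted p; the 3 genes most alike) were chosen with earlier results of these data known.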

Additional observations from a re-analysis of the deposited data

How the results depend on the processing

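Over all alternatives apart from leaving out a library, 755 of 794 values of single genes kept their side of the threshold, 23 were no longer called and 16 became called. Leaving out a library, 650 of 713 kept it, 60 were lost and 3 gained. Of these 1507 values 85 changed sign, all of them called neither as reported nor under the alternative. A further 100 combinations, 29 of them called as reported, had no adjusted p. The counts of calls moved as follows. For TAM in Ctrli, 2 calls became 1 with length offsets, 3 in edgeR and in 1 fit over all groups, and 1 to 2 without a library. For knockdowns under TAM, 3 became 0 with the replicate block, 4 in edgeR and in 1 fit, and 0 to 3 without a library. For those under ETH 5 became 1 with length offsets, 2 with the replicate block, 4 with TMM size factors, 6 with the count filter, 7 in edgeR and in 1 fit, and 0 to 6 without a library. In ER-Src the replicates share only a number: their deviations correlated from -0.0815 to 0.417, and of the 8 knockdown calls the block kept TEAD2 and VGLL3 in JUNBi_ETH, with adjusted p-values of 0.013 to 0.074 for the others. For YAPi against TAZi 0 became 1 in edgeR. For the interactions 0 became 1 in edgeR, 1 in a single fit, and 0 to 1 without a library. In set 1, 10 became 4 with TMM size factors and 5 with the count filter (3 of the calls without an adjusted p in each), 5 with length offsets (2 without), 6 in separate fits (2 without) and 3 to 5 without a library; edgeR gave 13, with TEAD4 in 3 contrasts, and the paired fit with the replicate block gave 10 calls and lost none. For set 2, 0 became 0 to 1 without a library. No paired analysis was possible because the set 2 controls are numbered 3 and 4 and the knockdowns 1 and 2. Rescaled over protein-coding genes, the log2 ratio of the set 1 knockdowns to controls turned from -0.87 to 0.8 for TEAD1 and from -0.15 to 1.57 for VGLL4. Where no construction shows it, the cause was not tested. With 4 and 1 counts of TEAD2 and TEAD4 in the TEADi libraries, the intervals of their ratios are wide.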
